A study of Drosophila melanogaster with 4 samples.

Results

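The fourth chromosome of Drosophila melanogaster carried 1497 of the 137555 annotated repeat copies for which reads of 24 to 29 nt were counted in ovaries. A copy was taken as a member when its annotated position lay on chromosome 4, with no use of its counts. Of the 1497 copies, 1469 had their midpoint in the body of the chromosome and 28 in its last 50 kb, 4:1298074-1348073 in dm6, counted back from the end of the last annotated copy. Of all 1497 copies, 404 had at least 1 read in any library. The 4 libraries were made from small RNA of whole ovaries, 2 per genotype. In Ars2KD (hairpin stock 106344) the germline was depleted of Ars2, an RNA-binding protein partner of the nuclear cap-binding complex. In wKD (hairpin stock 30033) a hairpin against the eye pigment gene white served as a control. The stocks differ, so that hairpin target and stock background cannot be told apart. Both genotypes carried a germline hairpin. The labels name neither its driver nor the age of the flies, and Ars2 RNA itself is not measured by these tables. The study asks what Ars2 does in the silencing of telomeric repeats and transposons.

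Chromosome 4 is the small dot chromosome, whose genes lie among repeats packaged as heterochromatin. INE-1, a short rolling-circle relic, and PROTOP, a DNA transposon of the P superfamily, are typical of it. At its distal end, as at other fly chromosome ends, HeT-A, TART and TAHRE retrotransposons take the place of telomerase by adding themselves to the tip. In the germline, transposon-derived piRNAs guide PIWI proteins to silence elements of the same sequence, and telomeric elements are among their targets. Ovary samples also hold somatic follicle cells, which have a piRNA pathway of their own.

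The libraries held between 46218 and 323180 repeat counts, and the 2 libraries numbered 1 (46218 and 64395) were shallower than the 2 numbered 2 (169124 and 323180). Chromosome 4 received 590 and 1441 counts (Ars2KD 1 and 2) versus 1161 and 4003 (wKD 1 and 2). Levels are given as CPM, the count divided by the TMM-scaled library total in units of 1e+06. A count of 3 in a library, used as the limit of detection, equals 58.4, 18.8, 43.2 and 10.5 CPM in Ars2KD 1, Ars2KD 2, wKD 1 and wKD 2. Since depth differs with the replicate number, the main comparisons are repeated inside number 1 (the shallower libraries) and inside number 2 (the deeper ones), with the exact 95% interval of the counts. These intervals cover counting error only. Nothing in the labels says that the 2 libraries of a genotype came from separate flies, so that p-values refer to the spread between these libraries, which may be technical.

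Chromosome 4 took 1.28% and 0.852% of all repeat counts (Ars2KD 1 and 2) versus 1.80% and 1.24% (wKD 1 and 2). These shares overlapped, since Ars2KD 1 lay above wKD 2, whereas the scaled totals did not, at 11492 and 9033 CPM (Ars2KD) versus 16729 and 13987 CPM (wKD). The Ars2KD share minus the wKD share was -0.526 percentage points in number 1 and -0.387 in number 2. In a two-sided exact permutation test the difference had p = 0.667, the smallest p that 2 against 2 libraries can give being 0.33. Fewer cells of a type and less small RNA per cell cannot be told apart in whole ovaries. Annotated repeats of chromosome 4 made up 1.31% of all repeat bases in the table. A count was present in 27.0% of its copies, against 6.94% of copies on X and 17.0% on 2R, the lowest and highest values among the other large arms. The arms were not matched for repeat class in this comparison. Simple and low-complexity repeats were 31.7% of body copies on chromosome 4 and 71.0% of copies outside it. Of the 466 in the body, 26 had a count. Per kb of annotated repeat, chromosome 4 had 32.3 CPM on average over the libraries, between 26.9 on 3R and 69.1 on 2R.

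The 2 regions of the chromosome differed in their values. The last 50 kb held 72 and 67 counts (Ars2KD 1 and 2) versus 327 and 603 (wKD 1 and 2). Every Ars2KD library lay below every wKD library after scaling, at 1402 and 420 CPM against 4712 and 2107 CPM. Ars2KD averaged 911 ± 695 CPM and wKD averaged 3409 ± 1842 CPM (SD, n = 2), which the model fitted as a log2 difference of -1.96 (SE 0.742). This did not pass the edgeR quasi-likelihood test adjusted over the 1614 features of that fit (adjusted p = 0.998, unadjusted p = 0.0333), in which 0.0620% of features were called. The call changed under 1 of the alternatives run, which is given with the dependence on the processing. Between the libraries numbered 1 the log2 difference was -1.75 (-2.14 to -1.38), and between those numbered 2 it was -2.33 (-2.71 to -1.96). The counting interval lay below 0 within both numbers, while the library numbered 1 was above the library numbered 2 in both genotypes. The value moved to -1.08 with the last 100 kb in place of 50 kb, to -3.13 without Ars2KD 1 and to -1.29 without Ars2KD 2, and to -1.39 without wKD 1, always below 0.

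The body held 518 and 1374 counts (Ars2KD) versus 834 and 3400 (wKD). Its scaled values were 10090 and 8613 CPM (Ars2KD 1 and 2) versus 12017 and 11880 CPM (wKD 1 and 2). After scaling the groups did not overlap there either, but the distance was smaller. As shares of all repeat counts they overlapped, at 1.12% and 0.812% (Ars2KD 1 and 2) versus 1.30% and 1.05% (wKD 1 and 2). The exact permutation test of these shares gave p = 0.667 (adjusted p = 0.667). The log2 difference was -0.39 (SE 0.405, edgeR adjusted p = 0.998), with -0.25 (-0.41 to -0.09) in number 1 and -0.46 (-0.56 to -0.37) in number 2.

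The last 50 kb made up 12.2% and 4.65% of chromosome 4 counts (Ars2KD 1 and 2) versus 28.2% and 15.1% (wKD 1 and 2). Within each genotype the library numbered 1 had the larger share. The log2 ratio of last 50 kb to body was -2.85 and -4.36 (Ars2KD) versus -1.35 and -2.50 (wKD), so that both Ars2KD libraries lay below both wKD libraries. The mean difference was -1.68, with p = 0.33 in the two-sided exact permutation test, the smallest value this design allows, and 0.667 after adjustment over the 7 measures tested this way. Within numbers, the log2 odds ratio of last 50 kb against body was -1.50 (-1.92 to -1.09) in number 1 and -1.86 (-2.26 to -1.48) in number 2.

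**Figure D1:**
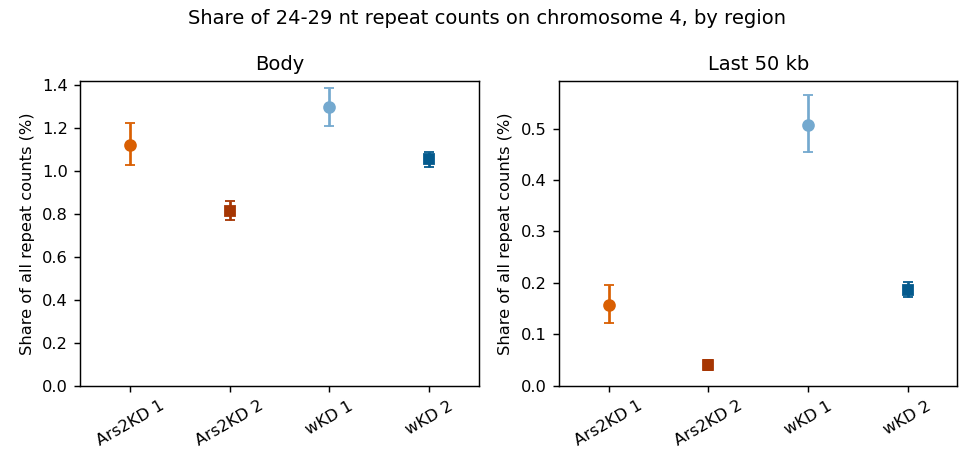
Share of all 24 to 29 nt repeat counts (%) that fell on the body of chromosome 4 (left) and on its last 50 kb (right), 1 point per library with its exact 95% binomial interval, circles for number 1 and squares for number 2. In the last 50 kb the shares are 0.156% and 0.0396% (Ars2KD) versus 0.508% and 0.187% (wKD), and in the body the intervals of Ars2KD 1 and wKD 2 overlap.

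The last 50 kb consisted of telomeric retrotransposons. Its 28 copies comprised 4 of HeT-A, 17 of TART, 2 of TAHRE and 5 simple repeats, which together covered 99.5% of its length. No gene was annotated there. The last annotated gene, Cadps, which encodes a regulator of vesicle release at synapses, ends at 4:1271759, so that the final 76314 bp held no gene and the 50 kb line fell inside the telomeric array. The subtelomeric satellite HETRP had 0 copies on chromosome 4.

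HeT-A, the most abundant of the telomeric retrotransposons, held nearly all counts of the last 50 kb, and 2 of its 4 copies held 97.0% of them. The copy at 4:1314345-1320140, annotated as a HeT-A insertion beyond the last gene, had 50 and 47 counts (Ars2KD) versus 197 and 399 (wKD). Its level was 974 and 295 CPM (Ars2KD) versus 2839 and 1394 CPM (wKD), with no overlap between groups. The log2 difference was -1.76 (SE 0.741, edgeR adjusted p = 0.998), being -1.54 (-2.02 to -1.09) in number 1 and -2.24 (-2.71 to -1.80) in number 2. It moved to -2.93 without Ars2KD 1 and to -1.13 without Ars2KD 2.

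The copy at 4:1301771-1307777, which lies 6567 bp proximal to it, had 19 and 16 counts (Ars2KD) versus 122 and 187 (wKD). Here too the groups did not overlap, at 370 and 100 CPM against 1758 and 653 CPM. The log2 difference was -2.41 (SE 0.863, edgeR adjusted p = 0.998), being -2.25 (-3.03 to -1.54) in number 1 and -2.70 (-3.54 to -1.97) in number 2. Without Ars2KD 1 it was -3.66, without Ars2KD 2 it was -1.70, and without wKD 1 it was -1.68. Between them, the copy at 4:1307883-1314210 had 1 and 3 counts (Ars2KD) versus 0 and 6 (wKD), although its length of 6328 bp was similar to theirs. The copy at 4:1295022-1301713 had 2 and 1 counts (Ars2KD) versus 8 and 9 (wKD). The 6 HeT-A copies of chromosome 4 were between 4684 and 6692 bp long, and only those at 4:1314345-1320140 and 4:1301771-1307777 had more than 50 counts over all libraries. How the submitters placed reads that match several copies is not given in the sources used here, and counts of single copies are uncertain to that extent.

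As a family sum, HeT-A in the last 50 kb had 1402 and 420 CPM (Ars2KD) versus 4712 and 2100 CPM (wKD). The fit over family sums per chromosome arm gave a log2 difference of -1.84 (SE 0.651, edgeR adjusted p = 0.58, unadjusted p = 0.0295). This call depended on the processing: 2 of the alternatives run passed, 1 of them with no filter on low counts (-1.88, edgeR adjusted p = 0.000766), and leaving out 1 library gave -2.88 to -1.20. The 253 HeT-A copies outside chromosome 4 had 2357 and 2971 CPM (Ars2KD) versus 5504 and 5793 CPM (wKD), without overlap, and log2 differences of -1.22 and -0.96 within numbers 1 and 2. The ratio of HeT-A counts in the last 50 kb to those outside chromosome 4 did not separate the groups. On the log2 scale it was -0.75 and -2.82 in Ars2KD against -0.22 and -1.46 in wKD (exact permutation p = 0.667, adjusted p = 0.667).

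TART, the second telomeric element, had a different distribution of counts. Its 17 copies in the last 50 kb added up to 27568 bp and to 2 counts over all libraries, both in wKD 2. Among them were 2 copies of exactly 10858 bp, at 4:1321411-1332268 and 4:1334393-1345250, with 1 count each, which the annotation names as TART-A insertions. Since the placing of reads that match several copies is not given, the low sum of these TART copies is uncertain as well. In contrast, a single copy in the proximal part of the array, at 4:1277575-1281474 in the body, had 52 and 118 counts (Ars2KD) versus 65 and 202 (wKD). Its level was 1013 and 740 CPM (Ars2KD) versus 937 and 706 CPM (wKD), so that the groups overlapped. The log2 difference was 0.09 (SE 0.557, edgeR adjusted p = 0.998), being 0.11 (-0.44 to 0.66) in number 1 and 0.07 (-0.27 to 0.40) in number 2, and its sign turned to -0.10 with no filter on low counts.

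TART copies in the body of chromosome 4 held 85.1% of all TART counts of the genome on average over the libraries, and this copy held 99.5% of them. The table and the annotation disagree about what it is. The table calls it TART, whereas 3045 of its 3900 bp lie in an insertion that the annotation calls HeT-A. The counts of TART as a family therefore rest mostly on a copy whose name differs between the 2 sources. Its intervals held 0 within both numbers, whereas those of the 2 most counted HeT-A copies lay below 0, and the difference between these copies was not tested.

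Of the remaining telomeric copies, HeT-A at 4:1281471-1288111 had 2 and 9 counts (Ars2KD) versus 10 and 24 (wKD), without overlap after scaling (39.0 and 56.4 against 144 and 83.9 CPM). HeT-A at 4:1290286-1294969 had 0 and 2 counts (Ars2KD) versus 0 and 12 (wKD). A TART_B1 fragment at 4:1274141-1274608, annotated as a TART-B insertion, had 3 and 6 counts (Ars2KD) versus 1 and 0 (wKD), opposite to HeT-A and too few to be tested. The TART fragment next to Cadps, at 4:1271969-1272528, had 2 counts, and a TAHRE fragment at 4:1289642-1291162 had 1, all in wKD 2. The other 6 of 7 TAHRE copies had 0 counts. The sum of all 49 copies beyond Cadps, a division chosen after the counts were seen, was 2630 and 1285 CPM (Ars2KD) versus 5879 and 2973 CPM (wKD). Its log2 difference was -1.16 (-1.45 to -0.88) in number 1 and -1.21 (-1.44 to -0.99) in number 2, and the groups did not overlap.

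**Figure D2:**
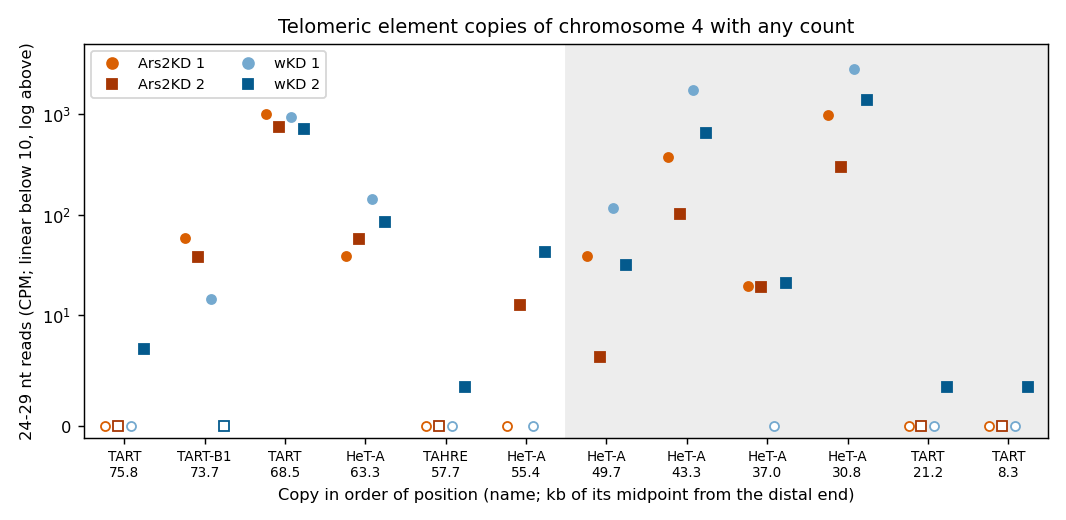
Level (CPM, linear below 10 and logarithmic above) of each telomeric copy of chromosome 4 that had any count, in order of position from the proximal side (left) to the tip (right), with 1 point per library; open symbols mark a count of 0 and grey marks the last 50 kb. HeT-A copies at 43.3 and 30.8 kb from the end have all Ars2KD points below all wKD points, while the TART copy at 68.5 kb has its 4 libraries between 706 and 1013 CPM and the 2 TART copies nearest the tip have almost no counts.

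Reads along the chromosome were concentrated in a few places. Of 27 windows of 50 kb, the 5 with most counts held 67.9% of chromosome 4 counts, and the median window had 76 counts over all libraries. In single libraries 50% of the counts lay in 20 and 12 copies (Ars2KD) and in 12 and 11 copies (wKD), and 17 copies were needed when ranked by mean CPM. The window next to the last held 18.7% of counts on average over the libraries, that at 300 to 350 kb from the end 15.8%, and the last 15.0%. The windows at 350 to 400 kb and 500 to 550 kb followed with 8.06% and 8.05%. The windows at 50 to 100 kb and 300 to 350 kb were among the 3 highest in each library, whereas the last was the highest in wKD 1 and below the 5 highest in Ars2KD 2.

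In the fit over all 462 windows of the genome that passed the filter, 20 lay on chromosome 4 and 0 of these were called, where 0.216% were called in all. Unadjusted p was under 0.05 for 3 of the 20, at 0 to 50, 350 to 400 and 750 to 800 kb from the end, all lower in Ars2KD. Neither DESeq2 nor limma-voom called any (0 each). The last window had a log2 difference of -1.97 (SE 0.695, adjusted p = 0.334) in that edgeR fit. The window beside it, with the proximal array and the end of Cadps, had 1792 and 2207 CPM (Ars2KD) versus 2378 and 2865 CPM (wKD), fitted as a log2 difference of -0.40 (SE 0.235, adjusted p = 0.505). The window at 350 to 400 kb had 896 and 652 CPM against 1196 and 1412 CPM, fitted as a log2 difference of -0.79 (SE 0.281, adjusted p = 0.334). That at 750 to 800 kb had 526 and 514 CPM against 749 and 936 CPM, fitted as -0.72 (SE 0.272, adjusted p = 0.334). Groups did not overlap in 7 windows with Ars2KD lower, where the genome gives 24.2%, and in 2 with Ars2KD higher, where it gives 22.9%. On 20 windows, these counts are small.

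**Figure D3:**
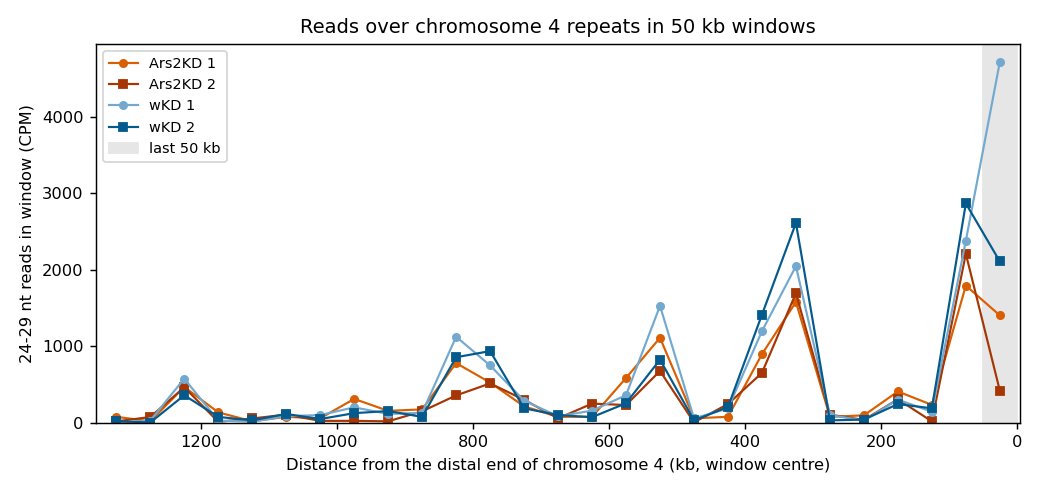
Reads of 24 to 29 nt (CPM) over repeats in 50 kb windows of chromosome 4, plotted against the distance of the window centre from the distal end (kb; the tip is at the right), 1 line per library. Peaks at 50 to 100 kb and 300 to 350 kb are present in each library, and the libraries spread most in the last 50 kb, from 420 CPM in Ars2KD 2 to 4712 CPM in wKD 1.

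The repeat classes of the body differed in number and in reads. Rolling-circle repeats, all INE-1, were 645 of its 1469 copies and held 41.0% of its counts on average over the libraries. LINE retrotransposons were 103 copies and held 40.4%. DNA transposons, with 197 copies, held 12.6%, and LTR retrotransposons, with 55 copies, held 4.64%. Simple and low-complexity repeats were 466 copies and held 1.09%, and 3 copies of other kinds held 0.160%. Elsewhere in the genome rolling-circle repeats were 3.79% of copies and 1.72% of counts, and LTR elements 13.9% and 47.0%. No satellite copy was annotated on chromosome 4. In the last 50 kb the 23 LINE copies, all telomeric, held all counts and the 5 simple repeats none.

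No class sum of chromosome 4 passed the edgeR test: 0 of 6 tested, where 0.124% of the 1618 features of that fit were called, 1 had an unadjusted p under 0.05 (LINE in the last 50 kb), and DESeq2 and limma-voom also called 0. All 6 had log2 differences below 0, which were -1.92 (SE 0.743) for LINE in the last 50 kb and, in the body, -0.32 (SE 0.463) for LINE, -0.41 (SE 0.499) for rolling-circle, -0.22 (SE 0.50) for DNA and -0.23 (SE 0.756) for LTR elements. Simple repeats of the body had 4 and 7 counts (Ars2KD) versus 16 and 40 (wKD), fitted as a log2 difference of -1.64 (SE 0.848), without overlap between groups. They passed the filter on low counts through wKD, and Ars2KD alone would not have passed, so that their direction carries no weight. The edgeR adjusted p was 0.997 for all 6 sums. Over all features of the same fit 49.6% were above 0. For LTR elements the sign differed between numbers, at 0.60 (-0.11 to 1.31) and -1.58 (-2.18 to -1.02).

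Among LINEs of the body, R1 and the F element had the most reads outside the telomeric array. R1 usually inserts into ribosomal RNA genes, and its 6 chromosome 4 copies lie elsewhere. They had 1091 and 1830 CPM (Ars2KD) versus 1441 and 2743 CPM (wKD), with overlap, fitted as a log2 difference of -0.41 (SE 0.440, edgeR adjusted p = 0.927). Per kb of annotated sequence this was 287 CPM, against 35.6 CPM for the 484 R1 copies outside chromosome 4. A single fragment of 355 bp held 53.9% of the R1 counts of the body, at 2605 CPM per kb. The longest copy, of 4431 bp, had 105 CPM per kb. On average 10.4% of R1 counts fell on chromosome 4.

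The most counted copy of the body was an R1 fragment of 355 bp in an intron of toy, at 4:999638-999992. toy encodes a Pax6 transcription factor of eye development. The fragment had 32 and 166 counts (Ars2KD) versus 37 and 430 (wKD), or 623 and 1041 against 533 and 1502 CPM. The groups overlapped, and the log2 difference was -0.29 (SE 0.677). Of the R1 fragments beside it, which belong to the same annotated insertion, the one at 4:1000426-1000810 had 6 and 55 against 10 and 114 counts. The one at 4:1000001-1000426 had 4 and 7 against 18 and 44 counts, without overlap, and a log2 difference of -1.80 (SE 0.830; -1.74 and -1.81 within numbers). Its Ars2KD libraries alone would not have passed the filter on low counts.

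The 4431 bp R1 copy at 4:591638-596068, which is intergenic and 1556 bp from lncRNA:CR45199, had 273 and 401 CPM (Ars2KD) versus 504 and 681 CPM (wKD). The groups did not overlap, with a log2 difference of -0.80 (SE 0.605; -0.89 and -0.76 within numbers). The edgeR adjusted p of these 4 R1 copies was 0.998.

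The F element, a LINE, had 312 and 802 CPM (Ars2KD) versus 648 and 1146 CPM (wKD) over 11 copies in the body. The log2 difference was -0.55 (SE 0.537, edgeR adjusted p = 0.923), being -1.06 (-1.98 to -0.21) in number 1 and -0.51 (-0.82 to -0.22) in number 2. It moved to -0.079 without Ars2KD 1, -1.52 without Ars2KD 2, -0.93 without wKD 1 and -0.12 without wKD 2. Most of these reads came from 1 insertion in an intron of Cadps, 4:1256227-1260813, inside which a PROTOP copy is nested. Its fragment at 4:1260418-1260746 had 5 and 72 counts (Ars2KD) versus 23 and 179 (wKD), and the nested PROTOP copy at 4:1257060-1258095 had 3 and 53 against 7 and 94. In both genotypes these fragments were higher after scaling in the library numbered 2. The log2 differences were -0.76 (SE 0.824) and -0.11 (SE 0.960), the latter turning to 0.11 with limma-voom. The first moved to -0.20 without Ars2KD 1, -2.35 without Ars2KD 2, -1.27 without wKD 1 and -0.21 without wKD 2.

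Cr1a, an old LINE, had 429 and 307 CPM against 476 and 384 CPM over 40 copies, fitted as a log2 difference of -0.13 (SE 0.401, edgeR adjusted p = 0.998). Its copy at 4:1268794-1269166 in an intron of Cadps had 0 and 8 counts (Ars2KD) versus 15 and 48 (wKD). The log2 difference was -2.56 (SE 1.11, edgeR adjusted p = 0.998), with -1.74 (-3.03 to -0.65) in number 2 and an upper limit of -1.41 in number 1, where Ars2KD had no count. It was -2.0 without Ars2KD 1, and without Ars2KD 2, where the count left in that group is 0, the fitted -7.68 is no bound. The I element, which causes hybrid dysgenesis, had 0.21 (SE 0.642), Doc3 0.62 (SE 0.724; 0.02 and 0.90 within numbers) and jockey 1.27 (SE 1.21). The jockey value came from 1 copy in an intron of ey, the other Pax6 gene, at 4:711351-712236 with 3 and 19 counts (Ars2KD) versus 6 and 4 (wKD), and its sign differed between numbers (-0.57 and 3.09).

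INE-1, the commonest repeat of the chromosome, had 4811 and 2790 CPM (Ars2KD) versus 5735 and 4322 CPM (wKD). The groups overlapped, since Ars2KD 1 lay above wKD 2, and the log2 difference was -0.30 (SE 0.359, edgeR adjusted p = 0.95), being -0.25 (-0.49 to -0.02) in number 1 and -0.63 (-0.79 to -0.47) in number 2. It moved to -0.73 without Ars2KD 1, -0.018 without Ars2KD 2, -0.14 without wKD 1 and -0.54 without wKD 2. Its reads were spread thinly. A count was present in 231 of 645 copies (35.8%), against 1172 of 5157 copies (22.7%) outside chromosome 4. The median counted copy had 4 counts over all libraries, 54 copies had 1, and the highest copy had 130. Per kb, INE-1 had 38.5 CPM on chromosome 4 and 18.6 CPM outside it. Chromosome 4 held 20.4% and 17.9% of all INE-1 counts (Ars2KD) versus 23.9% and 20.2% (wKD), where it has 11.1% of the copies. The log2 ratio of INE-1 counts on chromosome 4 to those outside did not separate the genotypes (exact permutation p = 0.667, adjusted p = 0.667). Of 13 INE-1 copies that could be tested, 11 had a log2 ratio below 0, with a median of -0.21 and a range of -1.54 to 0.03, and 0 were called.

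The DNA transposon PROTOP had 779 and 1009 CPM (Ars2KD) versus 922 and 982 CPM (wKD) over 102 copies. These 4 values were close, and the log2 difference was 0.02 (SE 0.322, edgeR adjusted p = 0.998), being -0.24 (-0.85 to 0.35) in number 1 and 0.04 (-0.25 to 0.32) in number 2. Its sign turned below 0 under every other scaling tried. Per kb it had 19.7 CPM on chromosome 4 and 23.2 CPM elsewhere. FB4, a foldback element, had 117 and 113 CPM against 173 and 241 CPM, without overlap, fitted as a log2 difference of -0.77 (SE 0.615, edgeR adjusted p = 0.866). Tc1-2, a mariner-like element, had 136 and 75.2 CPM against 259 and 133 CPM, with a log2 difference of -0.80 (SE 0.753). Its copy at 4:968778-970213 held 81.3% of its counts.

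LTR elements had few reads on chromosome 4. Burdock, a germline element, had 10 and 4 counts (Ars2KD) versus 7 and 20 (wKD), all from 1 copy at 4:1157710-1161777 that the annotation places mostly in a gypsy7 insertion, and its sign differed between numbers (0.95 and -1.48). DM297, listed with the follicle cell elements, had 5 and 1 counts (Ars2KD) versus 10 and 44 (wKD), fitted as a log2 difference of -1.79 (SE 1.24, edgeR adjusted p = 0.827). This rested on number 2, at -4.62 (-9.95 to -2.06), beside -0.57 (-2.46 to 1.12) in number 1. The Ars2KD libraries alone would not have passed the filter on low counts for DM297. Elements known mainly from follicle cells were represented by 4 of 12 listed families, with 9 of 19 copies counted. Their sum was 5 and 2 counts (Ars2KD) versus 12 and 54 (wKD), or 0.139% to 1.35% of chromosome 4 counts, most of it from DM297, and their part in the other values was not tested. Of 19 listed germline elements 10 had copies on chromosome 4. Together, with HeT-A among them, they had 3603 and 2670 CPM (Ars2KD) versus 7320 and 4741 CPM (wKD), without overlap, or -1.02 (-1.27 to -0.78) in number 1 and -0.83 (-0.99 to -0.67) in number 2 on the log2 scale. Their 8 tested family sums, in which HeT-A of the body and HeT-A of the last 50 kb enter separately, were counted equally. They had 4 values above 0 and a median log2 ratio of 0.03, with 0 called.

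**Figure D4:**
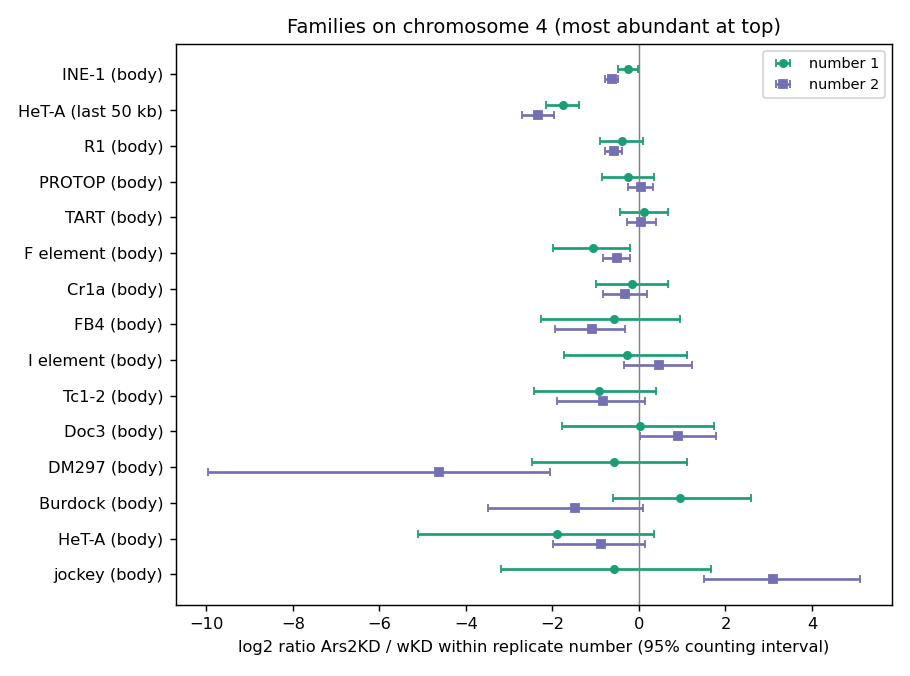
Log2 ratio of Ars2KD to wKD counts, scaled, for each transposon family sum of chromosome 4 that could be tested, between the libraries numbered 1 (circles) and numbered 2 (squares), with exact 95% counting intervals; families are ordered by mean level. HeT-A in the last 50 kb lies at -1.75 and -2.32, INE-1 at -0.25 and -0.63, and TART in the body at 0.11 and 0.05.

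Over the 16 family sums of chromosome 4 that could be tested, simple repeats included, 0 were called in edgeR, DESeq2 and limma-voom, where edgeR called 0.637% of all 471 sums. An unadjusted p under 0.05 was found for 1, HeT-A in the last 50 kb. Of the 16, 10 had log2 differences below 0 with a median of -0.36, against 52.2% above 0 and a median of 0.02 over all sums. Groups did not overlap for 5 sums with Ars2KD lower, where all sums give 20.4%, and for 1 with Ars2KD higher (Doc3), where they give 14.6%. Of the 5, HeT-A of the body (2 and 11 counts in Ars2KD), DM297 (5 and 1) and simple repeats (4 and 7) passed the filter on low counts through wKD. Their Ars2KD libraries alone would not have passed, and neither would those of Tc1-2, which overlapped. For Doc3 the wKD libraries alone would not have passed. The direction of these sums therefore carries no weight. HeT-A in the last 50 kb and FB4 would have passed on either group.

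Of the 1497 copies, 35 had enough counts to be tested singly, and 0 of them were called, against 0.0607% of all 1647 copies tested. DESeq2 and limma-voom also called 0, and 2 had an unadjusted p under 0.05, both of them the HeT-A copies described above. Log2 ratios were below 0 for 27 of the 35 and above 0 for 8, with a median of -0.29, beside 49.2% above 0 and a median of -0.01 over all tested copies. Groups did not overlap for 7 copies with Ars2KD lower (16.9% of all tested copies) and for 0 with Ars2KD higher (17.0%). On 35 copies, 7 is near the 16.9% of all tested copies. The 7 were the HeT-A copies at 4:1314345-1320140 and 4:1301771-1307777, R1 at 4:591638-596068 and 4:1000001-1000426, Cr1a at 4:1268794-1269166 and, lower in level, an INE-1 copy in toy at 4:999085-999517 and Tc1-2 at 4:968778-970213. The Cr1a copy, with 0 and 8 counts in Ars2KD, passed the filter on low counts through its wKD libraries only. R1 at 4:1000001-1000426, with 4 and 7 counts in Ars2KD, and the Tc1-2 copy would not have passed on Ars2KD alone either. The direction of these copies therefore carries no weight. The HeT-A copies and R1 at 4:591638-596068 would have passed on Ars2KD alone. By class, 7 of 7 DNA, 11 of 13 rolling-circle and 9 of 14 LINE copies were below 0, and the 1 LTR copy was above. Outside chromosome 4 the sum of DNA transposons was also lower in Ars2KD without overlap (-0.22 and -0.53 within numbers 1 and 2). The LINE, rolling-circle and LTR sums outside it overlapped.

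**Figure D5:**
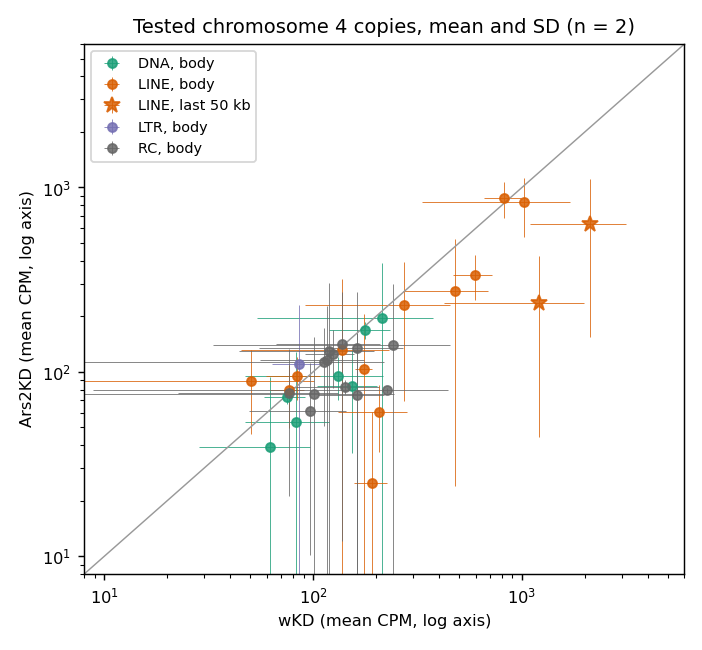
Mean level (CPM, both axes logarithmic) of the 35 tested chromosome 4 copies in wKD and Ars2KD, coloured by class, with stars for the last 50 kb, bars for the SD (n = 2, cut at the lower axis) and a line where both groups are equal. Both stars lie below the line, at 634 against 2116 CPM and 235 against 1206 CPM, while the other 33 copies had fitted log2 values on both sides of 0, 25 of them below.

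With regard to genes, 920 of the 1497 copies lay in introns, 199 overlapped an exon of an annotated transcript, 329 lay between genes and 49 beyond Cadps. The share of copies with a count was similar in these groups, at 27.7%, 26.6%, 24.6% and 30.6%. Intronic copies had 5415 and 5730 CPM (Ars2KD) versus 7219 and 7893 CPM (wKD), without overlap, with log2 differences of -0.41 and -0.46 within numbers. For copies at exons (-0.34 and -0.66) and between genes (0.16 and -0.62) the groups overlapped. A difference between these contexts was not tested. Per kb of repeat, the levels were 31.8 CPM in introns, 31.3 CPM at exons, 24.8 CPM between genes and 41.6 CPM beyond Cadps.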

How the data were processed

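The authors deposited raw counts per annotated repeat copy, from reads of 24 to 29 nt per the file headers, and raw counts per miRNA. Number of table columns not used: 0. Bowtie2, featureCounts, Trimmomatic and FastQC are listed, with build dm6 but without roles or versions, in the submitters' processing notes. The labels give size selection at 19 to 29 nt. Multi-mapping and strand handling are not given in the sources used here. On chromosome 4, 135 copies overlap the one before them. Genes and transposon insertions came from the Ensembl BDGP6 annotation, which has dm6 coordinates.

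Counts were tested with edgeR 4.0.16 (quasi-likelihood, TMM scaling, filterByExpr, no replicate block, Benjamini-Hochberg over all features, threshold 0.05) in R 4.3.3, on single copies, on chromosome 4 region or class sums fitted with all copies outside it, on family sums per arm and on 50 kb windows. A copy belongs to the region of its midpoint. Internal and LTR parts of an element form 1 family. CPM use the TMM factors of the copy fit (1.11, 0.943, 1.08 and 0.886 for Ars2KD 1, Ars2KD 2, wKD 1 and wKD 2). Alternatives were DESeq2 1.42.0 (test and size factors), limma-voom 3.58.1, other scalings and filters, other end sizes and leaving out each library. The fit was tested on simulated data with large changes and a fixed spread, which does not show its power at the spread of these libraries. Chi-square tests over families showed no pair of libraries to be the same. Python used scipy 1.17.1.

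Members and lists were chosen with earlier results of these data known. Copies named were the 6 most abundant of each region, up to 5 per direction without overlap and at least 10 CPM, and telomeric copies with a count; families were the 6 most abundant of the body and those of the last 50 kb with at least 10 counts. Others were named after their values were seen.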

Additional observations from a re-analysis of the deposited data

How the results depend on the processing

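The log2 ratio of the last 50 kb stayed below 0 under every alternative run and passed the threshold only with a replicate block (-2.07, adjusted p = 1.54e-06). Leaving out 1 library gave -3.13 to -1.29 for the last 50 kb and -0.58 to -0.28 for the body, -2.44 to -0.92 for the difference between them and -0.739 to -0.174 percentage points for the share of chromosome 4, with 0 copies, class sums, family sums or windows called. With the replicate block, 2 copies, 1 class sum, 1 family sum and 3 windows of chromosome 4 were called, all lower in Ars2KD, and the counts over all copies were 23 higher and 46 lower. The copies were HeT-A at 4:1301771-1307777 (-2.47, adjusted p = 4.37e-06) and 4:1314345-1320140 (-1.89, adjusted p = 3.01e-05), and the family sum was HeT-A in the last 50 kb (-1.93, adjusted p = 0.000174). The labels do not say what a number shares, and 2 pairs are too few to decide it. Deviations of same-numbered libraries correlated by 0.585 over 1647 copies. On chromosome 4 the correlation was 0.610 over 35 copies and 0.123 over 16 family sums. With no filter, 1 family sum and 1 window were called. Scaling to the total of both tables moved the median of all copies by -0.10 and of family sums by -0.20 on the log2 scale. The sign of PROTOP turned to -0.010 with DESeq2 size factors, -0.011 with the DESeq2 test, -0.027 with repeat-table totals, -0.23 with the total of both tables and -0.0015 with no filter. The nested PROTOP copy in Cadps turned to 0.11 with limma-voom, and the TART copy to -0.10 with no filter. Without 1 library, signs turned for that PROTOP copy (-1.98 to 1.03), the TART copy (-0.24 to 0.28), R1 at 4:999638-999992 (-0.99 to 0.66) and 4:1000426-1000810 (-1.31 to 0.73), and the sums of R1 (-0.93 to 0.086), PROTOP (-0.26 to 0.19), TART (-0.050 to 0.35) and Cr1a (-0.36 to 0.049). Without 1 library the sums of the F element (-1.52 to -0.079) and INE-1 (-0.73 to -0.018) stayed below 0. The last 25 kb, with 2 counts, could not be fitted. The causes were not tested. Copies with few counts in the libraries numbered 1 are limited by depth.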
